A study of Mus musculus with 6 samples.

Results

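Mitochondrial ribosomal protein genes encode the proteins of the ribosome inside mitochondria. They were taken as the rows of the authors' deposited comparison whose symbol is Mrpl or Mrps, a number and at most 1 further letter. This gave 77 of the 16701 listed genes, 48 named for the large subunit and 29 for the small one, chosen by symbol and by no measured value. Mrpl53 was not analysed here.

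Polyadenylated RNA was sequenced from luminal epithelial cells of the mouse mammary gland, the cells that line its ducts and alveoli. The 3 control libraries carry the label WT and the other 3 are Ocln knockouts (Ocln-/-), all of them from animals aged 7 weeks, with no treatment named. Ocln encodes occludin, a membrane protein of tight junctions. The sources used here do not say how the knockout allele was made, on which strain, how the cells were isolated or whether each library is a separate mouse. The p-values therefore measure the spread between these libraries, which may be partly technical. No values per library were used here. Each gene has the authors' mean level over the libraries in normalized counts, a log2 fold change of knockout over control with its standard error (SE), and the unadjusted and Benjamini-Hochberg adjusted p of DESeq2.

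The mitochondrial ribosome translates the few mRNAs of the mitochondrial genome, all of which encode subunits of the respiratory chain or of ATP synthase. Its RNAs come from mitochondrial DNA, but its proteins are encoded in the nucleus, made in the cytosol and imported. Some descend from the bacterial ribosome and others are found only in mitochondria. The large subunit joins amino acids and passes the chain to the inner membrane, and the small subunit binds and decodes the mRNA. The symbols do not fully follow the structure. Mrps30 and Mrps18a sit in the large subunit, and the Mrps36 protein is known as a part of the 2-oxoglutarate dehydrogenase complex.

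Ocln had a log2 fold change of -1.15 ± 0.16 (SE) in the authors' deposited table (DESeq2 adjusted p = 4.36e-09), or 44.9 percent of control at a mean level of 2048 normalized counts, so reads of Ocln were still counted in the knockout libraries. Luminal markers were abundant over the libraries, with Krt18 at a mean level of 84084 and Krt8 at 61719 normalized counts, against 116 for the basal keratin gene Krt5. The 6 luminal markers had levels from 24650 to 84084 and the 6 basal ones from 52.4 to 665. Levels of the 6 macrophage and myeloid markers ran from 71.1 to 6824. Marker lists of other cells are given by their counts and medians, beside 1.08 percent of all listed genes called and 51.2 percent negative. All 6 markers of cycling cells had negative values (median -1.13, 0 passing DESeq2, 3 lower at an unadjusted p under 0.05), all 6 macrophage and myeloid markers had positive ones (median 0.41, 0 passing, 1 higher at an unadjusted p under 0.05), and 5 of 6 basal markers had negative ones (median -0.17), with Oxtr, the oxytocin receptor gene, called lower. Of 6 B and T cell markers 3 were listed, all positive (median 1.28, 0 passing). Of 5 fibroblast markers 4 were positive (median 0.19) and 1 was called lower, while the 3 endothelial markers were positive (median 0.04) and the 1 listed adipocyte marker of 4 was negative (-0.14), with 0 passing. Of the 6 luminal markers 3 were negative (median -0.03), with 0 passing and 1 lower at an unadjusted p under 0.05. The part of these cells in the values below was not tested. Fewer cells of a type and less RNA per cell cannot be told apart in such bulk libraries.

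Of the 77 mitochondrial ribosomal protein genes, 0 had an adjusted p under 0.05 by the authors' DESeq2 test, against 1.08 percent of all listed genes. At an unadjusted p under 0.05 there was 1, Mrps36, which was higher, against 5.23 percent of all listed genes that were higher and 9.07 percent in either direction. None was lower at that threshold, where 3.83 percent of all listed genes were. The single values were small and mostly on the same side. A negative log2 fold change was listed for 65 of the 77, or 84.4 percent, against 51.2 percent of all listed genes. The median was -0.13, or 91.3 percent of the control level, while that of all listed genes was -0.01. The middle part of the members, from the lower to the upper quartile, ran from -0.19 to -0.05.

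That small shared offset is set beside the precision of each gene. The SE of the members had a median of 0.20 log2 units, so the median value is smaller than 1 SE of a typical member. The SE of a single member does not measure the error of the members' median, which is unknown. Without Mrps36, the log2 fold changes of the remaining 76 had an SD of 0.12 among themselves, which is also below their median SE of 0.20. The members thus differed from each other by less than the error of a single one. For 56 of the 77, the 95 percent interval (normal approximation from its SE) lay wholly within a 1.5-fold change in either direction, and for 76 it lay within a 2-fold change. The members share the same 6 libraries and are not replicates of the comparison, so no test was made of the offset.

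**Figure D1:**
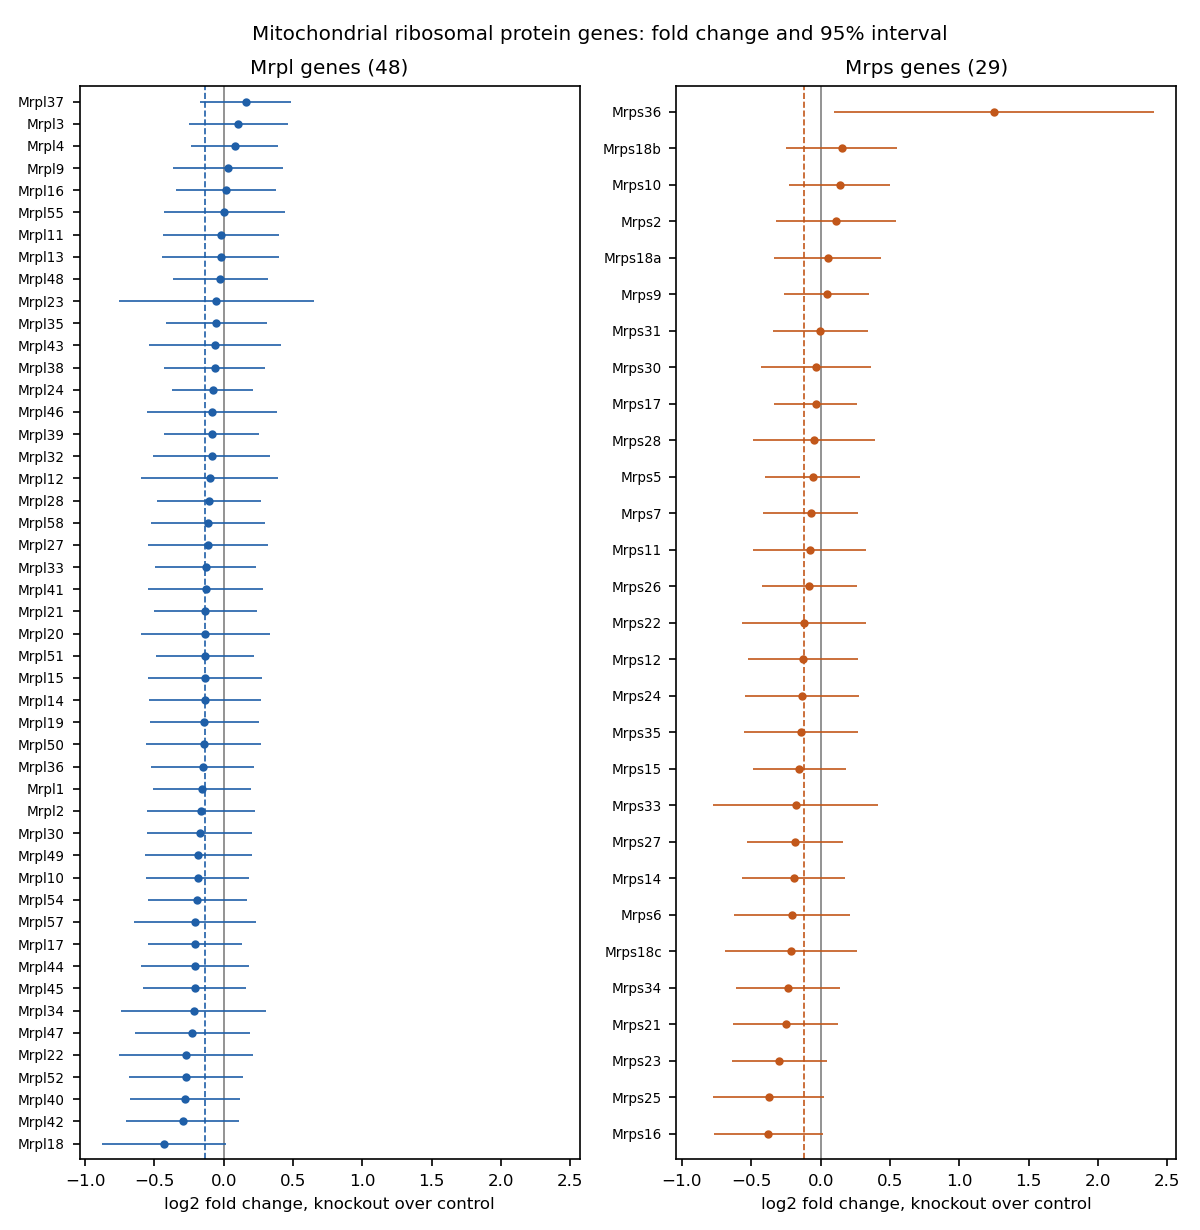
Log2 fold change of knockout over control (horizontal axis) of the 48 Mrpl genes, left, and the 29 Mrps genes, right, in the authors' deposited table, with lines for the 95 percent interval, a solid line at 0 and a dashed line at the median of each panel. The intervals of 76 members include 0, most points lie left of it, and Mrps36 stands alone on the right at 1.25.

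The offset was also read beside transcript length and level, and their part in it was not tested. Over all listed genes with a length in GENCODE, longer transcripts tended to higher log2 fold changes (Spearman rho 0.15 across 16225 genes, which share libraries and are not independent). The members are short, with a median transcript of 1316 bases. The 5810 listed genes in the members' middle range of length, 923 to 2572 bases, had a median of -0.04, and 56.0 percent of them were negative. When each value was set against the median of its bin of transcript length, the members' median was -0.07 and 61 of 77 were negative. Set against bins of mean level, it was -0.10 with 62 negative. The 2287 listed genes in the members' middle range of level, 367 to 707 normalized counts, had a median of -0.01, with 52.9 percent negative.

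The large and the small subunit had nearly the same values. The 48 Mrpl genes had a median log2 fold change of -0.13 (quartiles -0.19 and -0.07), with 42 negative. The 29 Mrps genes had a median of -0.12 (quartiles -0.19 and -0.03), with 23 negative. The difference of these medians, large minus small, was -0.013. The SE of a single member does not measure the error of such a difference. With Mrps30 and Mrps18a counted in the large subunit and Mrps36 left out, the 50 large and 26 small subunit genes each had a median of -0.13, and the difference was -0.00081. Since genes share libraries and are not replicates, this difference has no test and its error is unknown.

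In the large subunit, the most negative value was that of Mrpl18, a protein of the central protuberance, at -0.43 ± 0.23 (SE, unadjusted DESeq2 p = 0.0573, adjusted p = 0.57) in the authors' deposited table. It corresponds to 74.2 percent of control (95 percent interval 54.5 to 100.9). Mrpl42 (-0.30 ± 0.21), Mrpl40 (-0.28 ± 0.20), another protein of the central protuberance, Mrpl52 (-0.28 ± 0.21) and Mrpl22 (-0.27 ± 0.24), whose bacterial relative lines the exit tunnel, came next in the authors' deposited table. Their adjusted p-values ran from 0.754 to 0.846. At the other end stood Mrpl37 (0.16 ± 0.17), Mrpl3 (0.11 ± 0.18), a relative of a bacterial protein near the peptidyl transferase centre, Mrpl4 (0.08 ± 0.16), Mrpl9 (0.03 ± 0.20) and Mrpl16 (0.02 ± 0.18) in the authors' deposited table. Neighbours among these differed by less than their SEs, and the 95 percent intervals of Mrpl18 and Mrpl37, the ends of it, overlapped.

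In the small subunit, Mrps16 (-0.38 ± 0.20 SE, unadjusted DESeq2 p = 0.0615) and Mrps25 (-0.37 ± 0.20, unadjusted p = 0.0677) had the lowest values of the authors' deposited table, and both are genes in which variants cause respiratory chain deficiency in people. They stood at 77.1 and 77.1 percent of the control level, and their adjusted p-values were 0.589 and 0.606. Mrps23 (-0.30 ± 0.18), Mrps21 (-0.25 ± 0.19) and Mrps34 (-0.23 ± 0.19) followed in the authors' deposited table. Apart from Mrps36, the highest were Mrps18b (0.15 ± 0.20), Mrps10 (0.14 ± 0.19), Mrps2 (0.11 ± 0.22) and Mrps18a (0.05 ± 0.20). The paralogs Mrps18a, Mrps18b and Mrps18c are related copies of 1 bacterial protein family that occupy different places in the ribosome. These paralogs had values on both sides of 0, with Mrps18c at -0.21 ± 0.24 in the authors' deposited table. Their 95 percent intervals overlapped, and the differences between them were not tested. Mrps30, which is in the large subunit by structure, had -0.03 ± 0.20 in the authors' deposited table.

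Groups by origin and by place in the ribosome had medians from -0.21 to -0.10, and differences between them were not tested. The members of each place were chosen after the values were seen and do not cover all members. Counts of negative values in these small groups stand beside 84.4 percent negative among all 77 members. The 30 large subunit proteins of bacterial type had a median of -0.13 with 25 negative, and the 20 listed mitochondria-specific ones a median of -0.13 with 18 negative. In the small subunit, the 16 of bacterial type had a median of -0.10 with 13 negative, and the 10 mitochondria-specific ones -0.16 with 9 negative. All 4 stalk proteins were negative with a median of -0.13. Among them Mrpl12, which also binds the mitochondrial RNA polymerase, had -0.10 ± 0.25 in the authors' deposited table. All 6 proteins around the tunnel exit were negative (median -0.21), among them Mrpl45, which holds the ribosome at the inner membrane, at -0.21 ± 0.19 in the authors' deposited table. So were all 7 of the central protuberance (median -0.11), where Mrpl58, a peptidyl-tRNA hydrolase built into the ribosome, had -0.11 ± 0.21 in the authors' deposited table. The 3 proteins of the decoding site and mRNA channel were negative as well (median -0.13), with Mrps12 at -0.13 ± 0.20. Of 16 members known from human respiratory chain deficiency, 14 were negative (median -0.13). In each of these groups 0 members passed DESeq2 and 0 had an unadjusted p under 0.05.

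Levels differed far more between members than fold changes did. The mean level ran from 21.2 normalized counts for Mrps36 to 2281 for Mrpl24, a protein at the tunnel exit, with a median of 503 against 399 for all listed genes. The next highest in the authors' deposited table were Mrpl38 (1638), Mrpl52 (1208), Mrpl30 (1188) and Mrpl37 (1085) in the large subunit, and Mrps17 (1121), Mrps21 (942), Mrps9 (924), Mrps7 (921) and Mrps23 (882) in the small one. The lowest after Mrps36 were Mrpl23 (58.1), Mrpl22 (136.6), Mrps18c (136.6), Mrpl43 (167) and Mrps33 (201). Summed, the members held 0.19 percent of the mean levels of all listed genes.

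Per length, the order of levels changed. Divided by the length of the annotated main transcript, the members had a median of 321 normalized counts per kilobase, 325 for Mrpl and 272 for Mrps genes, or 325 and 307 by place in the ribosome. Mrpl52 came first with 2890 normalized counts per kilobase, followed by Mrps21 (1930), Mrpl24 (1704) and Mrpl33 (1479), and Mrps36 last with 30.2. The proteins are present once or a few times per ribosome, while their mRNA levels per length spanned this range. Part of it rests on the annotated 3' ends, since the main transcripts run from 418 bases for Mrpl52 to 7300 for Mrpl17. Levels here are means over both genotypes, so their spread over libraries is unknown.

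**Figure D2:**
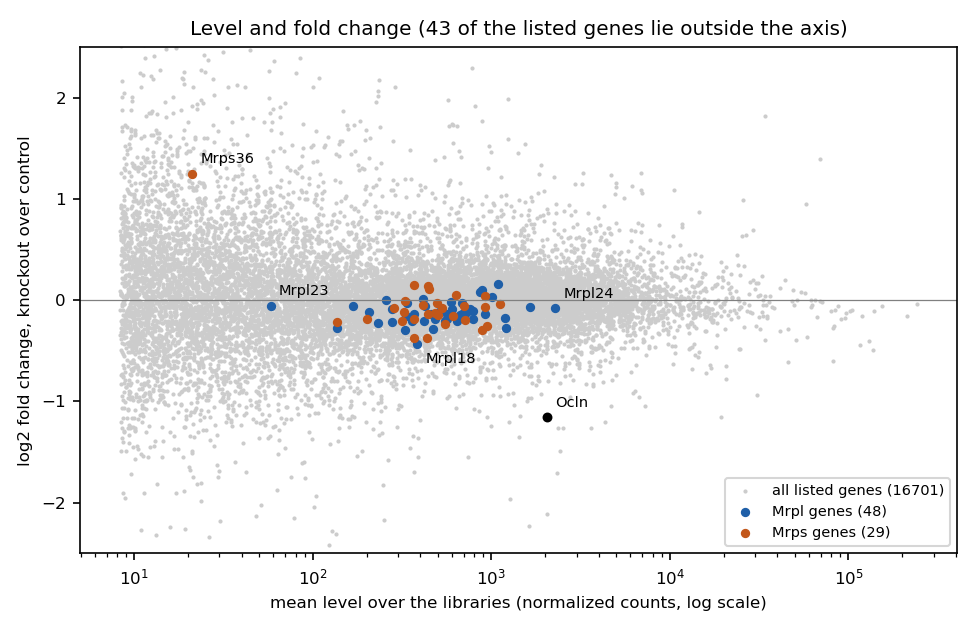
Mean level over the libraries in normalized counts (horizontal log axis) and log2 fold change of knockout over control (vertical axis) of all 16701 listed genes in grey, the 48 Mrpl genes in blue, the 29 Mrps genes in orange and Ocln in black, with 43 genes beyond the axis. Apart from Mrps36 at a level of 21.2, the members form a narrow band just below 0.

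Mrps36 was the member that stood apart. Its log2 fold change in the authors' deposited table was 1.25 ± 0.59 (SE, unadjusted DESeq2 p = 0.0333, adjusted p = 0.488), and the authors called it Up, as they did 1.8 percent of all listed genes, with 2.79 percent called Up or Down. It corresponds to 238 percent of control (95 percent interval 107 to 529). It did not pass the adjusted threshold, and it had the lowest mean level of the members, 21.2 normalized counts. On GRCm38 it occupies chromosome 13 positions 100735955 to 100744659, minus strand, 183 kb from Ocln (100496507 to 100552718). It was the member nearest to Ocln. The only other member within 5 Mb was Mrps27, 1.08 Mb away, whose log2 fold change in the authors' deposited table was -0.18 ± 0.18 (adjusted p = 0.863), close to the members' median. The listed genes within 5 Mb of Ocln, without Ocln itself, were 76, and Mrps36 and Mrps27 are among them. Of these 76, 4 were called higher and 0 lower by DESeq2, against 1.08 percent of all listed genes called. At an unadjusted p under 0.05 there were 16 of the 76 in either direction, Mrps36 included, against 9.07 percent of all listed genes. The median of the 76 was 0.04. Whether DNA linked to the knockout allele differs from that of the controls was not tested.

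Mrps36 also has copies elsewhere in the genome. Processed pseudogenes, which are reinserted copies of an mRNA, can take reads from a gene or give reads to it when the sequences are nearly the same. The authors' deposited table lists Mrps36-ps1 and Mrps36-ps2 as separate rows. Over the 309 coding bases of Mrps36 in GENCODE, Mrps36-ps1 differed at 2 of 306 aligned bases and Mrps36-ps2 at 3 of 309. The stretch of coding bases 24 to 128, which holds most of these differences, is shown 5' to 3', with capitals at each base where any of the sequences differ.
Mrps36: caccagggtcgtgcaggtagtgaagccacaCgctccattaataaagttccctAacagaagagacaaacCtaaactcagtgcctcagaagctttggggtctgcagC
Mrps36-ps1: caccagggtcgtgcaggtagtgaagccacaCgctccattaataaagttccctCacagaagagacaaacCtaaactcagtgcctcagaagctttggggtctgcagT
Mrps36-ps2: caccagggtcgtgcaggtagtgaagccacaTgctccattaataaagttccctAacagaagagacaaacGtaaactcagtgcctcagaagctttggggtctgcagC
Within the coding bases, few positions can assign a short read to one of them. The rest of the 701-base main transcript of Mrps36 was not compared base by base.

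The pseudogenes held most of the level and had values on the other side of 0. Mrps36-ps1 had a mean level of 162 normalized counts and a log2 fold change of -0.27 ± 0.24 (SE), and Mrps36-ps2 a level of 48.0 and -0.25 ± 0.37, in the authors' deposited table. The Mrps36 row held 9.16 percent of the summed level of the 3 rows. The mean level and fold change of each row imply group means, taking the authors' mean as that of 3 control and 3 knockout libraries. These were 12.5 normalized counts in control and 29.8 in knockout for Mrps36, and 229 and 191 for the pseudogenes together. Summed over the 3 rows, 242 in control stood against 221 in knockout, a log2 fold change of -0.13. This sum was chosen after the values were seen and carries no error, because the covariance of the rows is not given. Whether reads were assigned differently among these rows in the 2 genotypes was not tested.

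Near-identical copies touched other members too. Of the 77, 18 matched a pseudogene at another place in the genome at 95 percent identity or more over at least 200 bases, and 11 of these had such a copy listed in the authors' deposited table. In 4 members the listed copies had a higher level than the gene. The most uneven pair was Mrpl23, at the tunnel exit, with a mean level of 58.1 normalized counts, and Mrpl23-ps1 with 813, which matched at 100 percent identity over 540 bases. Their log2 fold changes in the authors' deposited table were -0.05 ± 0.36 and -0.01 ± 0.18. The others were Mrpl48 (337 against 518 for Mrpl48-ps) and Mrps33 (201 against 381 for Gm5776). The levels of these 4 genes are therefore uncertain, and how the authors counted reads that match several places is not given in the sources used here. When each of the 11 was summed with its listed copies, 10 moved by less than 1 SE and Mrps36 alone moved by more and changed sign. The 59 members without any such copy had a median of -0.13, with 50 negative.

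**Figure D3:**
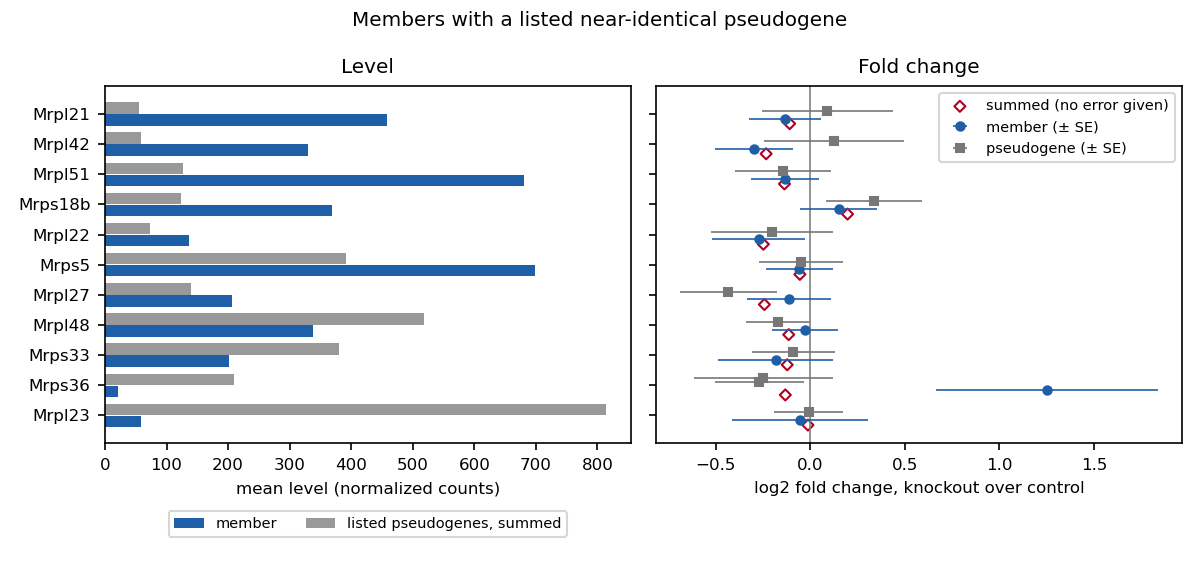
The 11 members with a listed near-identical pseudogene, ordered by the member's share of the summed level: mean level in normalized counts of the member (blue) and its copies (grey) on the left, and log2 fold change on the right with SE bars and the value of the summed rows as open diamonds. Mrps36 and its copies lie on opposite sides of 0, and the diamond of that row is at -0.13.

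The 5 mitoribosomal proteins below have symbols of other kinds and were read beside the members. Dap3, a GTP-binding protein of the small subunit (-0.17 ± 0.16 SE), Aurkaip1 (-0.17 ± 0.19), Chchd1 (-0.20 ± 0.23), the RNA-binding protein Ptcd3 (-0.02 ± 0.21) and the large subunit protein Gadd45gip1 (-0.06 ± 0.27) had negative values throughout, none called, in the authors' deposited table. Their median was -0.17. The 27 listed genes of mitoribosome assembly had a median of -0.04 with 16 negative, 0 passing and 1 lower at an unadjusted p under 0.05. That gene was Mrm2, a methyltransferase of the large ribosomal RNA (-0.96 ± 0.43, at a mean level of only 33.5), while the RNA helicase gene Dhx30 (0.14 ± 0.17), Fastkd2 (0.08 ± 0.19) and Fastkd5 (0.35 ± 0.33) had no call in the authors' deposited table.

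Lists of genes that work with the finished ribosome had medians nearer to 0 than the members' median, with no test of the difference. Their SDs were 0.17 for translation factors and 0.21 for tRNA synthetases. The SD was 0.20 for the 77 members and 0.12 for the 76 without Mrps36. The 17 mitochondrial translation factors had a median of -0.01 with 10 negative and 0 at an unadjusted p under 0.05 by DESeq2. C1qbp (0.06 ± 0.22), Oxa1l, which inserts new chains into the inner membrane (-0.04 ± 0.18), and the initiation factor genes Mtif2 (0.12 ± 0.15) and Mtif3 (-0.34 ± 0.24) are examples from the authors' deposited table. The 20 listed mitochondrial tRNA synthetase genes had a median of -0.01 with 11 negative, with 0 past 0.05 by DESeq2, adjusted or not. Lars2 (0.23 ± 0.35), Iars2 (0.08 ± 0.16), Mars2 (0.37 ± 0.25) and Pars2 (-0.69 ± 0.40) mark their highest levels and the ends of their scores in the authors' deposited table. Among 16 genes of mitochondrial transcription and biogenesis, 7 were negative (median 0.03), 0 passed DESeq2 and 1, the termination factor gene Mterf1a (-0.89 ± 0.42), had an unadjusted p under 0.05. Yy1 (0.01 ± 0.14), Myc (0.05 ± 0.22) and Pprc1 (0.52 ± 0.31) had no call in the authors' deposited table.

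The products and partners of mitochondrial translation gave 2 further reference points. The 13 mRNAs of the mitochondrial genome, which this ribosome translates, had a median of -0.06 with 11 negative and 0 past 0.05 by DESeq2, adjusted or not. Among them were mt-Co1 (-0.03 ± 0.15), mt-Cytb (-0.10 ± 0.15), mt-Nd6 (-0.13 ± 0.16) and mt-Atp8 (0.04 ± 0.21) in the authors' deposited table. The 79 listed nuclear genes of oxidative phosphorylation had a median of -0.20 with 74 negative, or 93.7 percent, against 51.2 percent of all listed genes. Of these 79, 2 were called lower by DESeq2, against 1.08 percent of all listed genes called in either direction. They were Cox7c (-1.15 ± 0.25, adjusted p = 0.00102) and Ndufs5 (-2.84 ± 0.76, adjusted p = 0.0228) in the authors' deposited table, both at low levels of 170 and 45.9 normalized counts. Atp5b (-0.14 ± 0.19) and Atp5a1 (-0.10 ± 0.15), the most abundant, did not pass, and Atp5l stood at 0.65 ± 0.31. The 82 cytosolic ribosomal protein genes had a median of -0.04 with 46 negative and 0 past 0.05 by DESeq2, adjusted or not, with Rpl4 at -0.08 ± 0.16, Rps3 at -0.17 ± 0.18, Rpl28 at 0.45 ± 0.27 and Rpl39 at -0.34 ± 0.19 in the authors' deposited table. The members' median thus lay between those of the cytosolic ribosome and of oxidative phosphorylation. All groups come from the same comparison, and no test of the differences between them was made.

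**Figure D4:**
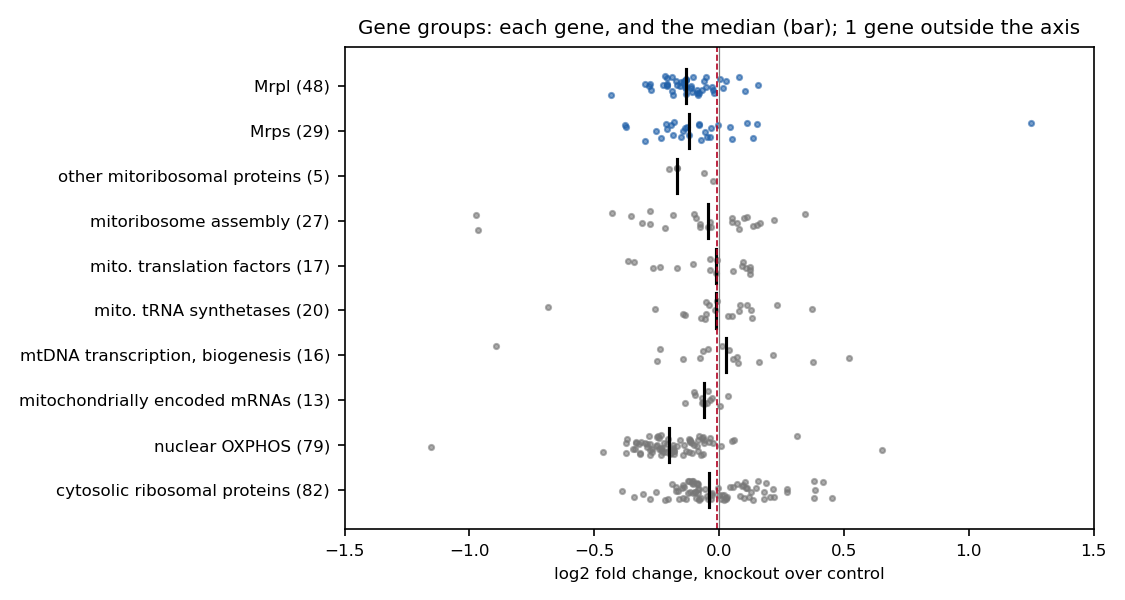
Log2 fold change of knockout over control (horizontal axis) for each gene of 10 groups, the 48 Mrpl and 29 Mrps genes in blue and the others in grey, with a black bar at each median and a dashed line at the median of all listed genes, -0.01, and 1 gene beyond the axis. The nuclear oxidative phosphorylation genes have a median of -0.20 and the cytosolic ribosomal protein genes one of -0.04.

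Many members share their start region with another gene. A protein-coding gene began within 1000 bases on the opposite strand for 33 of the 77 members, or 42.9 percent, against 15.5 percent of 13298 listed protein-coding genes, by GENCODE. In 1 such pair both genes are members, Mrpl46 of the large and Mrps11 of the small subunit, and both had -0.08 in the authors' deposited table, with SEs of 0.24 and 0.21. These 2 genes overlap by 412 bases at their starts, where reads without strand cannot be told apart. Several partners also work in mitochondria. Mrps12 (-0.13 ± 0.20) starts beside Sars2 (0.08 ± 0.21), which charges a mitochondrial tRNA with serine, and Mrpl36 (-0.15 ± 0.19) beside Ndufs6 (-0.37 ± 0.22), a complex I subunit gene, in the authors' deposited table. Mrpl47 (-0.23 ± 0.21) starts beside Ndufb5 (-0.14 ± 0.19), another complex I gene, and Mrps27 (-0.18 ± 0.18) beside Ptcd2 (-0.32 ± 0.19) there.

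Of 30 such pairs with both genes listed, each counted once, 19 had a negative value in both genes, 9 in the member only and 2 in neither. The partners' median was -0.04 and that of the members in these pairs -0.14. By DESeq2, 0 partners passed and 2 had an unadjusted p under 0.05, Ska3, a gene of dividing cells beside Mrpl57 (-1.13 ± 0.48 against -0.21 ± 0.22), and Pnpla7 beside Mrpl41 (0.34 ± 0.17 against -0.13 ± 0.21), in the authors' deposited table. Across the 30 pairs the Spearman rho was 0.40, a description only, since the genes share libraries and some pairs overlap at their starts, by up to 891 bases. Reads without strand cannot be told apart in such an overlap. Mrpl46 and Mrps11, Mrpl36 and Ndufs6, and Mrpl47 and Ndufb5 are among the overlapping pairs.

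**Figure D5:**
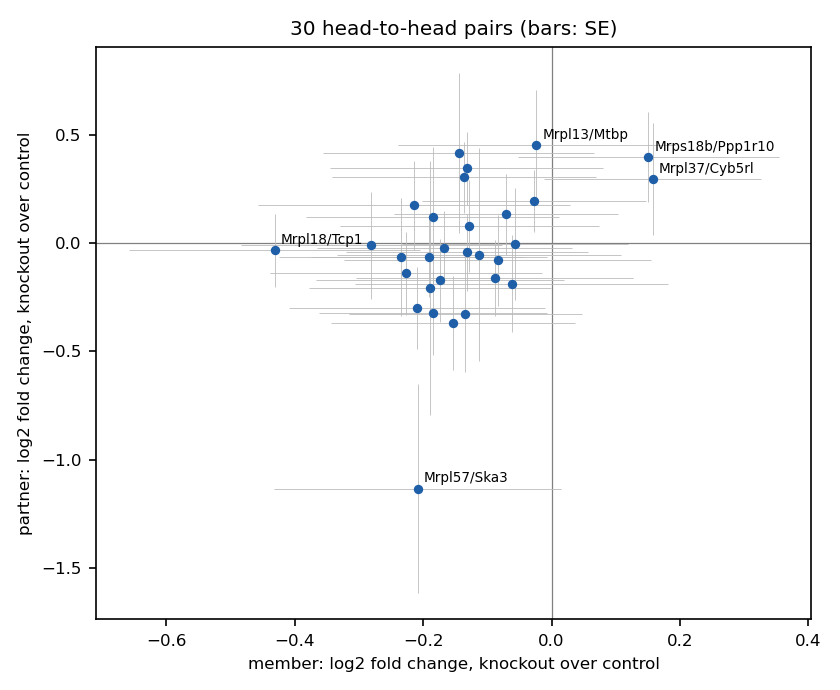
Log2 fold change of knockout over control of 30 members (horizontal axis) and of the protein-coding gene starting within 1000 bases on the other strand (vertical axis), with SE bars. Partners spread from -1.13 for Ska3 to 0.45 for Mtbp, the partner of Mrpl13, while the members stay between -0.43 and 0.16.

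Promoters of the members were rich in a few known motifs. RefSeq promoters on GRCm38, from 250 bases before to 50 after a start, were found for 68 of the 77 members, 74 promoters in all. The ETS motif CCGGAAG, on either strand, was in 25 of the 74, or 33.8 percent, against 16.1 percent of the promoters of listed genes and 8.86 percent of all promoters in the table. The YY1 motif GCCATNTTG was in 11, or 14.9 percent, against 3.77 and 2.51 percent. The core GCGCATGC of the NRF1 motif was in 8, or 10.8 percent, against 4.70 and 2.71 percent, and the E-box CACGTG in 7, or 9.46 percent, against 9.46 and 7.15 percent. The 7 promoters with an E-box belong to 5 members, since overlapping promoters of Mrpl2 hold the same match. The median GC content was 58.5 percent in the members' promoters and 60.3 percent in those of listed genes. Median fold changes of members with and without a motif are given without a test. The 25 with the ETS motif had a median of -0.13 and the 43 without it -0.10, and for YY1 the medians were -0.13 in 11 and -0.13 in 57. For the NRF1 core they were -0.11 in 8 and -0.13 in 60, and for the E-box -0.15 in 5 and -0.13 in 63.

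These 3 promoters are shown because they hold these motifs in different arrangements, with every match in capitals. That of Mrps12, at chr7:28741772-28742071 on the minus strand, covers the GENCODE starts of both Mrps12 and Sars2 and has a YY1 and an ETS match. That of Mrps27, at chr13:99344536-99344835 on the plus strand, has an ETS match and 2 YY1 matches. That of Mrpl32, at chr13:14612988-14613287 on the minus strand, carries several matches to the NRF1 core.
Mrps12: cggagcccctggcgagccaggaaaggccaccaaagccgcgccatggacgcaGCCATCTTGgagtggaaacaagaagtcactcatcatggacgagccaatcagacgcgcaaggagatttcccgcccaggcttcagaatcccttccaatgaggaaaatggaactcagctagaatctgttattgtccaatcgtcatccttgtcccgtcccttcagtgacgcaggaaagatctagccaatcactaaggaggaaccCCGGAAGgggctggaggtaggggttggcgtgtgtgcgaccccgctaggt
Mrps27: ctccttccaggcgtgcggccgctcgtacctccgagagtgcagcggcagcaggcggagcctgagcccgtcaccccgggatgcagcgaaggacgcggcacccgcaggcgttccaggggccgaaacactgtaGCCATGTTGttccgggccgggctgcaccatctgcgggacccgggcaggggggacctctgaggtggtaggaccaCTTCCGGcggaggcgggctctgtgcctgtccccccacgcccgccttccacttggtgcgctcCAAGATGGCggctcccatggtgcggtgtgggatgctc
Mrpl32: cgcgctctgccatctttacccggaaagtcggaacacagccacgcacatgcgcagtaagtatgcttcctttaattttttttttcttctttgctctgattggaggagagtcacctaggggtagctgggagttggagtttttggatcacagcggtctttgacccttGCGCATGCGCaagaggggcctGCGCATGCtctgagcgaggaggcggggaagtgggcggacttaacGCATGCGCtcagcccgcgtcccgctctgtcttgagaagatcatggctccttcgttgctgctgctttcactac
These genes had log2 fold changes of -0.13 ± 0.20 (Mrps12), -0.18 ± 0.18 (Mrps27) and -0.09 ± 0.22 (Mrpl32) in the authors' deposited table. A match is a description of the letters and shows no binding.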

How the data were processed

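The authors deposited 1 table of knockout over control. Per the submitters' processing notes DESeq2 was used, with mm10 (GRCm38) as the genome. Aligner, read counter, annotation and model are unstated there. The deposited columns, per the file headers, hold a mean level (a signal in normalized counts), a log2 fold change with its SE, a Wald score, the p-value before and after adjustment, and a call (Up, Down, Stable). Dividing fold change by SE gave the score to within 2.58e-07. The lowest listed level was 8.35, so genes below it were not analysed here, and every member had passed this limit. The depth of each library is unknown.

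The planned count model needs counts, so the authors' values are described with no new test per gene. The members and lists were chosen with earlier results of these data known. Places, lengths and transcripts came from GENCODE M21 (all 77 members matched), using 1 transcript per gene. Copies were found with blastn 2.17.0. Adjustments in the alternatives were tested on simulated data. Genes are named by a rule: Ocln, members at an unadjusted p under 0.05, the 5 highest and 5 lowest log2 fold changes and 5 highest and 3 lowest levels of each subunit, members within 5 Mb of Ocln, the Mrps18 paralogs, Mrps30 and Mrps36, mitoribosomal proteins with other symbols and, of each list, called members, the 2 highest levels and the ends of the score. Pseudogenes, head-to-head partners and members of places in the ribosome were chosen after the values were seen.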

Additional observations from a re-analysis of the deposited data

How the results depend on the processing

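The number of called members stayed at 0 of 77 at an adjusted p of 0.01 and after scores were scaled down for their inflation or centred in 20 bins of transcript length, and at 0 of 76 with a mean level of at least 50. It was 1, Mrps36, by the unadjusted p and 1 by the authors' own calls. The median log2 fold change ran from -0.13 to -0.07 over the alternatives, the last under the centring by transcript length. The number of negative members was 61, 62 and 64 of 77 under centring by transcript length, by mean level and on the median of all listed genes. It was 65 of 76 by level of at least 50 or by place in the ribosome, 64 of 75 without those near Ocln, 70 of 82 with the proteins of other symbols and 50 of 59 without members that have a near-identical pseudogene, an alternative added after the data were seen. The difference between the subunits' medians ran from -0.019 to -0.00081. Of the 77 members, 4 changed sign under the centring by transcript length, 3 under that by mean level and 1 when the median of all listed genes was taken off, each moving by less than 1 SE. DESeq2 against edgeR, leaving out a library and the replicate number as a block were not run, since the table holds no values per library. No paired analysis was possible because the table gives only 1 comparison without values per library. The unknown depth limits what is seen, and only 56 of 77 intervals lie within a 1.5-fold change.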
